A study of Homo sapiens with 27 samples.

Results

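Ribosome biogenesis factors are the proteins that transcribe, modify, cut and fold ribosomal RNA and assemble it with ribosomal proteins. The 50 genes described here were taken by symbol from the 2 deposited count tables: nucleolar processing factors, proteins of the small nucleolar ribonucleoprotein particles (snoRNPs), and subunits of RNA polymerase I. All 50 matched a row of the 67130 in each table. TWISTNB, listed there as POLR1F, was matched through its identifier, ENSG00000105849. All 50 passed the filter on low counts in both sets of libraries.

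RNA was sequenced from 27 samples of human cells in which ARID1A, whose product is a DNA-binding part of the BAF complex, a chromatin remodeller of the SWI/SNF family, had been knocked out. The 18 samples labelled 293T, an embryonic kidney line that carries the SV40 large T antigen, fell into 6 groups of 3. These were the knockout alone (KO) and the knockout with stable lentiviral, Flag-tagged ARID1A as wild type (WT) or as the missense mutant V2084D, G2087E, G2087R or K2025E. The 9 samples labelled Huh7, a hepatocellular carcinoma line, fell into 3 groups of 3. These were the knockout with WT, with V2084D, and with V2084D plus a knockdown of STUB1, a ubiquitin ligase that works with chaperones (V2084D + shSTUB1). No group in either set holds cells with their own ARID1A, and no knockout without added ARID1A was among the Huh7 samples. The labels name no control hairpin for the groups without shSTUB1. They do not say whether a line is 1 clone or a pool, or whether the 3 samples of a group are separate cultures, so p-values measure the spread between these samples, which may be technical.

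Ribosomes are built in the nucleolus. RNA polymerase I copies the ribosomal DNA repeats into a long precursor RNA, snoRNPs guide its chemical modification, and processing complexes cut it and fold it into the small and the large subunit. The genes for these factors are spread over the genome and are known to be expressed in step with cell growth. The transcription factor MYC is a known activator of many of them, through the E-box sequence in their promoters.

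The promoters of the members were examined because most members moved together in the Huh7 libraries. RefSeq promoter windows on GRCh38.p14, from 250 bases before to 50 bases after a start, were given for 43 of the 50 members. The palindromic E-box CACGTG was present in the windows of 18 of these 43 genes, or 41.9%, against 12.1% of the 12818 genes that were tested in both sets of libraries and had a window. It was present in 18 of the 49 other ribosome biogenesis genes with a window, or 36.7%. The ETS-type motif CCGGAAGT, searched on both strands, occurred in 10 members, or 23.3%, against 8.56% of the tested genes. The NRF1-type motif GCATGCGC, also searched on both strands, occurred in 4 members, or 9.3%, against 5.75%. Of the 19 E-boxes in member windows, 17 lay within 50 bases of the start, or 89.5%. In all 35116 windows, genes not tested here included, 36.9% of 2821 E-boxes did. That share was not taken for the tested genes alone. These matches describe letters in a window and say nothing about binding. Stretches of 30 bases around an E-box are shown for members that fell with V2084D in the Huh7 libraries and for members that did not, so that both can be compared. Each runs 5′ to 3′ on the gene's strand, and capitals mark the E-box. The first 8 are the genes with the smallest adjusted p among those that fell and had an E-box within 50 bases of the start and 30 bases of window around it.
RRP9 (chr3:51941892-51941921, minus strand): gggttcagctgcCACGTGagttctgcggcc
LTV1 (chr6:143843354-143843383, plus strand): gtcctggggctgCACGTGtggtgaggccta
BYSL (chr6:41921515-41921544, plus strand): ttcttcagtcccCACGTGcgatccttcccg
UTP4 (chr16:69132621-69132650, plus strand): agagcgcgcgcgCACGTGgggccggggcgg
NOP14 (chr4:2963374-2963403, minus strand): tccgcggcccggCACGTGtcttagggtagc
PES1 (chr22:30591880-30591909, minus strand): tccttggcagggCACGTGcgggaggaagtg
MRTO4 (chr1:19251807-19251836, plus strand): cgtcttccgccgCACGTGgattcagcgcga
MYBBP1A (chr17:4555340-4555369, minus strand): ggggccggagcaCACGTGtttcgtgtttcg
The next 5 are all the members with an E-box that did not fall.
GNL3 (chr3:52686026-52686055, plus strand): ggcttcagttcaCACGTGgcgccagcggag
DDX21 (chr10:68956604-68956633, plus strand): ggccgggtgtccCACGTGgtccccggcgac
FBL (chr19:39846356-39846385, minus strand): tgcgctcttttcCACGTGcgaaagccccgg
WDR43 (chr2:28894658-28894687, plus strand): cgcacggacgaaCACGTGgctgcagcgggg
GAR1 (chr4:109815781-109815810, plus strand): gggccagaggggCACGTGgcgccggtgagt
The 120 bases upstream of UTP4 and NOP10 hold both an E-box and the ETS-type motif, and are shown with both in capitals, the latter read on its other strand as ACTTCCGG.
UTP4 (chr16:69132529-69132648, plus strand): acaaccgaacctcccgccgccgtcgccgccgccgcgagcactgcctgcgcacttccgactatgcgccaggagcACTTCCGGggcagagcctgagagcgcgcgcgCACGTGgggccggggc
NOP10 (chr15:34343137-34343256, minus strand): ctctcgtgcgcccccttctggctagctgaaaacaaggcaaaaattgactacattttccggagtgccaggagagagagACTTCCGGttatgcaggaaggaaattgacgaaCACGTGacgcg

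Library totals ran from 33429483 to 55539529 counts in the 293T samples and from 59124374 to 79915177 in the Huh7 samples. The lowest count of any member in a library was 938 (RRP8, in a 293T library), a counting error of 3.27%. The samples labelled Huh7 did not carry the markers of hepatocytes: of 11 markers, 6, with AFP, TTR, SERPINA1 and HNF4A among them, had a mean below 0.1 CPM over the 9 libraries (counts scaled to library size with TMM factors). In a single group only APOB in WT, at 2.32 CPM, reached a mean of 1 CPM. Their summed level was 1.9 to 5.31 CPM per library, beside 2.86 to 10.5 CPM in the 293T libraries, while at least 7 of 8 markers of 293 cells were at 1 CPM or more in each group. The libraries are therefore called by their label only. STUB1 was at 214 to 243 CPM in WT, 248 to 296 CPM in V2084D and 67.2 to 84.1 CPM in V2084D + shSTUB1. ARID1A, which reads both the altered gene and the added copy, was at 342 to 399.9 CPM, 216 to 271 CPM and 189 to 351 CPM in the same groups. In the 293T libraries it was at 117 to 193 CPM in KO, 5690 to 62920 CPM in WT, 42660 to 114800 CPM in V2084D, 43790 to 84610 CPM in G2087E and 13370 to 21660 CPM in K2025E. In G2087R it was at 291 and 323.5 CPM in replicates 1 and 2 against 68170 CPM in replicate 3, so replicates 1 and 2 lay above the KO libraries but far below every other 293T library with added ARID1A.

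In the Huh7 libraries the ribosome biogenesis genes were lower with V2084D than with WT, and part of the set was higher again with shSTUB1. Of the 50 genes, 40 fell and 2 rose in V2084D minus WT, at an adjusted p below 0.05 in edgeR's quasi-likelihood test. Of all 22510 genes tested, 20.0% were called lower and 22.0% higher, so 80% of the members stood beside a background of 20.0%. Their median log2 difference was -0.69, against 0.03 over all genes tested. In V2084D + shSTUB1 minus V2084D, 30 members rose and none fell, where 10.8% of all genes were called higher and 10.8% lower. The median log2 difference of the members was 0.30 in that comparison, against -0.0035 over all genes. Both comparisons use the 3 V2084D libraries, so they are not independent, and the values of each are given side by side. Summed over the 50 genes, the level was 12660 to 12880 CPM in the WT libraries, 9063 to 9694 CPM in V2084D and 10640 to 11380 CPM in V2084D + shSTUB1. The libraries of the 3 groups did not overlap in this sum. With a log2 difference of at least 1 also asked for, 9 members were called lower with V2084D, against 4.11% of all genes, and none higher with shSTUB1, against 1.31%. The falls of NOP58, DKC1 and NPM1 with V2084D, and the rises of TWISTNB, GAR1, WDR75, NOB1, TSR1, DDX10, PES1 and NOP2 with shSTUB1, ended as calls when one or another single library was left out. Markers of cell type moved in the same libraries. The summed level of the 8 markers of 293 cells was 644 to 683 CPM in WT, 257 to 293 CPM in V2084D and 220 to 270 CPM in V2084D + shSTUB1. IRS4, an insulin receptor substrate, was at means of 456, 19.0 and 20.5 CPM in these groups. The fall of IRS4 from WT to V2084D was larger than that of the sum, so the other markers of 293 cells together did not fall. LHX1 was at 7.57, 4.72 and 3.61 CPM, while PAX2 (8.46, 13.7 and 14.2 CPM) and NEFL (52.1, 80.5 and 69.0 CPM) were higher in V2084D than in WT. The 11 hepatocyte markers summed to 3.43 to 5.31, 2.34 to 3.31 and 1.9 to 3.82 CPM, with AFP and TTR at 0 in WT and APOB at means of 2.32, 0.044 and 0.17 CPM. The part of these shifts in the members' falls was not tested. In bulk RNA, fewer cells that express a gene and less of its RNA per cell cannot be told apart.

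**Figure D1:**
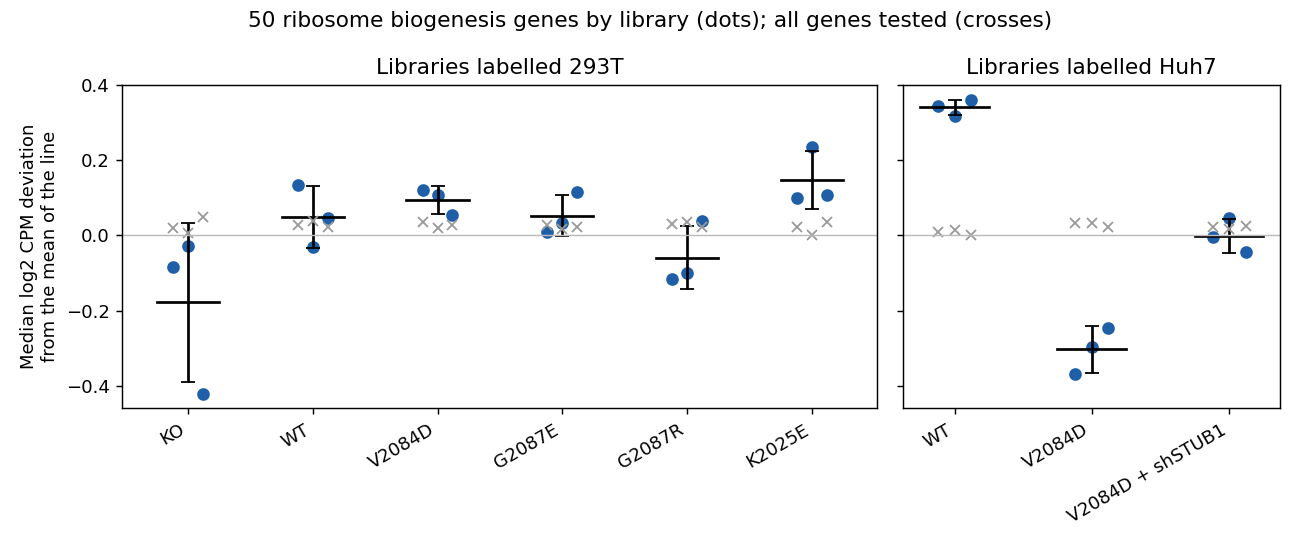
Median over the 50 ribosome biogenesis genes of the log2 CPM deviation from the mean of all libraries of the same label (vertical axis), for each library (dots) by group (horizontal axis); bars give the group mean and SD of 3 libraries, and crosses give the same median over all genes tested. The Huh7 WT libraries sit at 0.32 to 0.36, V2084D at -0.37 to -0.25 and V2084D + shSTUB1 at -0.045 to 0.046, while the crosses stay near 0.

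Among the subunits of RNA polymerase I, the large core subunits fell with V2084D and the peripheral subunit TWISTNB rose. POLR1A, the largest subunit, was at 181, 197 and 203 CPM in WT, 107, 113 and 101 CPM in V2084D, and 134, 88.6 and 162 CPM in V2084D + shSTUB1. POLR1B, the other large core subunit, was at 124, 123 and 133.5 CPM, then 76.3, 84.4 and 75.0 CPM, then 109.5, 96.5 and 118 CPM. For both genes every WT library was above every V2084D library, with log2 differences of -0.86 (SE 0.17, adjusted p = 0.00216) and -0.69 (SE 0.086, adjusted p = 9.91e-05). POLR1B rose with shSTUB1 by 0.46 (SE 0.086, adjusted p = 0.00413), whereas the shSTUB1 libraries of POLR1A spread over the V2084D range (0.26, SE 0.17, adjusted p = 0.326). TWISTNB, which joins the stalk of the polymerase, was at 76.9, 75.3 and 72.5 CPM in WT, 111, 116 and 105 CPM in V2084D, and 138, 141 and 118.5 CPM in V2084D + shSTUB1. It rose in V2084D minus WT by 0.56 (SE 0.080, adjusted p = 0.00024) and again with shSTUB1 by 0.26 (SE 0.080, adjusted p = 0.0414).

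The box C/D snoRNP carries the ribose methylation guides, with FBL as its methyltransferase and NOP56 and NOP58 as its paired scaffold proteins. NOP56 was at 446, 446 and 449 CPM in WT, 234, 240.2 and 251 CPM in V2084D, and 327, 328.5 and 311 CPM in V2084D + shSTUB1. Its log2 difference was -0.89 (SE 0.051, adjusted p = 7.02e-07) with V2084D and 0.41 (SE 0.050, adjusted p = 0.000465) with shSTUB1. NOP58 was at 243, 245 and 215.5 CPM, then 189, 204 and 208 CPM, then 330.5, 332 and 295 CPM. NOP58 fell by 0.23 (SE 0.073, adjusted p = 0.03) and rose with shSTUB1 by 0.67 (SE 0.074, adjusted p = 0.000267), to libraries above all 3 of WT. FBL was at 428 to 473 CPM in WT, 349 to 459.7 CPM in V2084D and 420.5 to 522 CPM in V2084D + shSTUB1. Its groups overlapped, and neither difference passed the test (-0.17, adjusted p = 0.23, and 0.23, adjusted p = 0.145).

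The box H/ACA snoRNP guides pseudouridylation, with DKC1 as its catalytic subunit and NHP2, NOP10 and GAR1 as partners. NHP2 was at 335, 305 and 330.3 CPM in WT, 136, 144 and 160.4 CPM in V2084D, and 158, 183 and 152.5 CPM in V2084D + shSTUB1. It fell by 1.14 on the log2 scale (SE 0.086, adjusted p = 3.89e-06), and its change with shSTUB1 did not pass the test (0.16, adjusted p = 0.215). The other genes of the particle had smaller differences with V2084D. DKC1 was at 248 to 256 CPM, then 213 to 235 CPM, then 267.5 to 286 CPM, with differences of -0.17 (adjusted p = 0.0333) and 0.31 (adjusted p = 0.00355). NOP10 was at 97.8 to 101 CPM, 76.0 to 79.7 CPM and 79.9 to 101.5 CPM, with differences of -0.34 (adjusted p = 0.00902) and 0.18 (adjusted p = 0.192). GAR1 was at 41.9 to 48.3 CPM, 35.1 to 48.1 CPM and 48.6 to 59.0 CPM. Its WT and V2084D libraries overlapped (-0.10, adjusted p = 0.516), and it rose with shSTUB1 (0.38, adjusted p = 0.0393).

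The organisers and regulators of the nucleolus were mixed, with 4 of 6 lower, 1 higher and 1 not called in V2084D minus WT. MYBBP1A, a nucleolar protein that binds MYB, fell by 0.96 (SE 0.069, adjusted p = 3e-06). The fall was smaller for the abundant histone chaperone and RNA-binding proteins NCL (-0.39) and NPM1 (-0.25) and for NOLC1 (-0.37), which binds snoRNPs. GNL3, the nucleolar GTPase also called nucleostemin, rose by 0.40 (SE 0.063, adjusted p = 0.000488) and did not change past the test with shSTUB1 (-0.06, adjusted p = 0.595). DDX21, a helicase found with both RNA polymerases I and II, was at 639.5, 659.5 and 589 CPM in WT, 579, 596 and 539 CPM in V2084D, and 745, 711 and 735 CPM in V2084D + shSTUB1. Its WT and V2084D libraries overlapped (-0.14, adjusted p = 0.0753), and it was the 1 gene of this group to rise with shSTUB1, by 0.35 (SE 0.057, adjusted p = 0.00194).

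The t-UTP proteins load early on the growing precursor and are needed for small subunit processing. UTP4 fell by 0.74 and UTP15 by 0.49 in V2084D minus WT, while WDR43 (-0.07), WDR75 (-0.0024) and HEATR1 (-0.21) did not pass the test. UTP15 was at 55.0, 57.7 and 51.3 CPM in WT, 38.0, 41.9 and 36.9 CPM in V2084D, and 52.1, 62.3 and 56.2 CPM in V2084D + shSTUB1. WDR43 was at 185, 193 and 182 CPM, then 178, 182 and 173.5 CPM, then 227, 228 and 230.3 CPM. The shSTUB1 libraries of WDR43 were thus above both other groups, while those of UTP15 overlapped with WT. With shSTUB1 4 of the 5 rose: UTP15 by 0.55 (SE 0.083, adjusted p = 0.00138), UTP4 by 0.43, WDR43 by 0.36 (SE 0.053, adjusted p = 0.00123) and WDR75 by 0.30. HEATR1 was 0.29 higher, with an adjusted p of 0.118.

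All 13 other small subunit factors fell in V2084D minus WT, and for each the WT and V2084D libraries did not overlap. Of all genes tested, 26.9% did not overlap in that direction. The log2 differences of the 13 ran from -0.33 for the helicase DDX10 to -1.60 for RRP9 (chr3:51933430-51941941, minus strand, on GRCh38), which binds the U3 snoRNA. RRP9 went from 69.8 to 78.3 CPM in WT to 20.2 to 29.6 CPM in V2084D and 33.4 to 38.4 CPM in V2084D + shSTUB1. UTP14A, an activator of the helicase DHX37, was at 90.7, 89.2 and 93.5 CPM in WT, 35.8, 40.6 and 38.9 CPM in V2084D, and 53.7, 52.8 and 52.5 CPM in V2084D + shSTUB1. It fell by 1.25 (SE 0.065, adjusted p = 4.46e-07) and rose with shSTUB1 by 0.46 (SE 0.064, adjusted p = 0.000859). RRP12, an export factor of both subunits, was at 72.5, 68.0 and 77.6 CPM, then 32.3, 36.9 and 35.2 CPM, then 59.3, 51.4 and 54.2 CPM. Its differences were -1.06 (SE 0.080, adjusted p = 3.83e-06) and 0.66 (SE 0.080, adjusted p = 0.000452). In all, 10 of the 13 rose with shSTUB1. UTP20 rose by 0.70, RRP9 by 0.58, LTV1 by 0.43 and NOB1, the nuclease of the last small subunit cut, by 0.23. RRP7A (0.17, adjusted p = 0.156), BYSL (0.16, adjusted p = 0.12) and NOC4L (-0.0063, adjusted p = 0.975) did not pass the test.

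The PeBoW complex of PES1, BOP1 and WDR12 acts in large subunit processing. PES1 was at 343, 322.5 and 353 CPM in WT, 194, 204 and 231 CPM in V2084D, and 252, 274 and 243 CPM in V2084D + shSTUB1. BOP1 was at 318, 297 and 331 CPM, then 164, 168 and 206 CPM, then 208, 236.5 and 193 CPM. Both fell with V2084D, PES1 by 0.70 (SE 0.077, adjusted p = 4.48e-05) and BOP1 by 0.82 (SE 0.10, adjusted p = 9.37e-05). WDR12, the remaining partner, was at 82.7, 88.1 and 79.5 CPM, then 81.1, 82.2 and 88.4 CPM, then 109.9, 120.1 and 108 CPM. Its WT and V2084D libraries overlapped (0.008, SE 0.073), and its shSTUB1 libraries were above all 6 others. WDR12 rose with shSTUB1 by 0.43 (SE 0.073, adjusted p = 0.00257) and PES1 by 0.29 (SE 0.077, adjusted p = 0.0221), while BOP1 did not pass (0.24, adjusted p = 0.115).

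Of the 13 other large subunit factors, 12 fell in V2084D minus WT and the methyltransferase RRP8 did not pass the test (0.10, adjusted p = 0.353). RRS1, which helps bring a small ribonucleoprotein into the large subunit, was at 68.5, 69.4 and 70.7 CPM in WT, 21.3, 25.2 and 23.5 CPM in V2084D, and 34.2, 37.0 and 32.4 CPM in V2084D + shSTUB1. It fell by 1.57 (SE 0.077, adjusted p = 3.08e-07) and rose with shSTUB1 by 0.56 (SE 0.075, adjusted p = 0.000738). RRP1 (chr21:43789513-43805293, plus strand) went from 178 to 208 CPM in WT to 60.5 to 77.4 CPM in V2084D and 74.7 to 83.9 CPM in V2084D + shSTUB1. Its log2 difference of -1.503 had an adjusted p of 2.18e-06, and the change with shSTUB1 did not pass (0.24, adjusted p = 0.126). Its paralog RRP1B fell by 0.81 and was at -0.07 with shSTUB1. NOC3L was at 94.9, 99.0 and 92.3 CPM, then 68.4, 79.9 and 75.5 CPM, then 105, 110.1 and 107 CPM. Its fall of 0.35 (SE 0.073, adjusted p = 0.00251) and its rise with shSTUB1 of 0.53 (SE 0.073, adjusted p = 0.000828) left the shSTUB1 libraries above those of WT. The partner NOC2L fell by 0.84 and did not change past the test with shSTUB1 (0.02, adjusted p = 0.897). The rRNA methyltransferase NOP2 fell by 1.06, NOP16 by 1.25 and MRTO4, which holds the place of a stalk protein, by 1.01. With shSTUB1 7 of the 13 rose, MRTO4 (0.64) by the most.

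**Figure D2:**
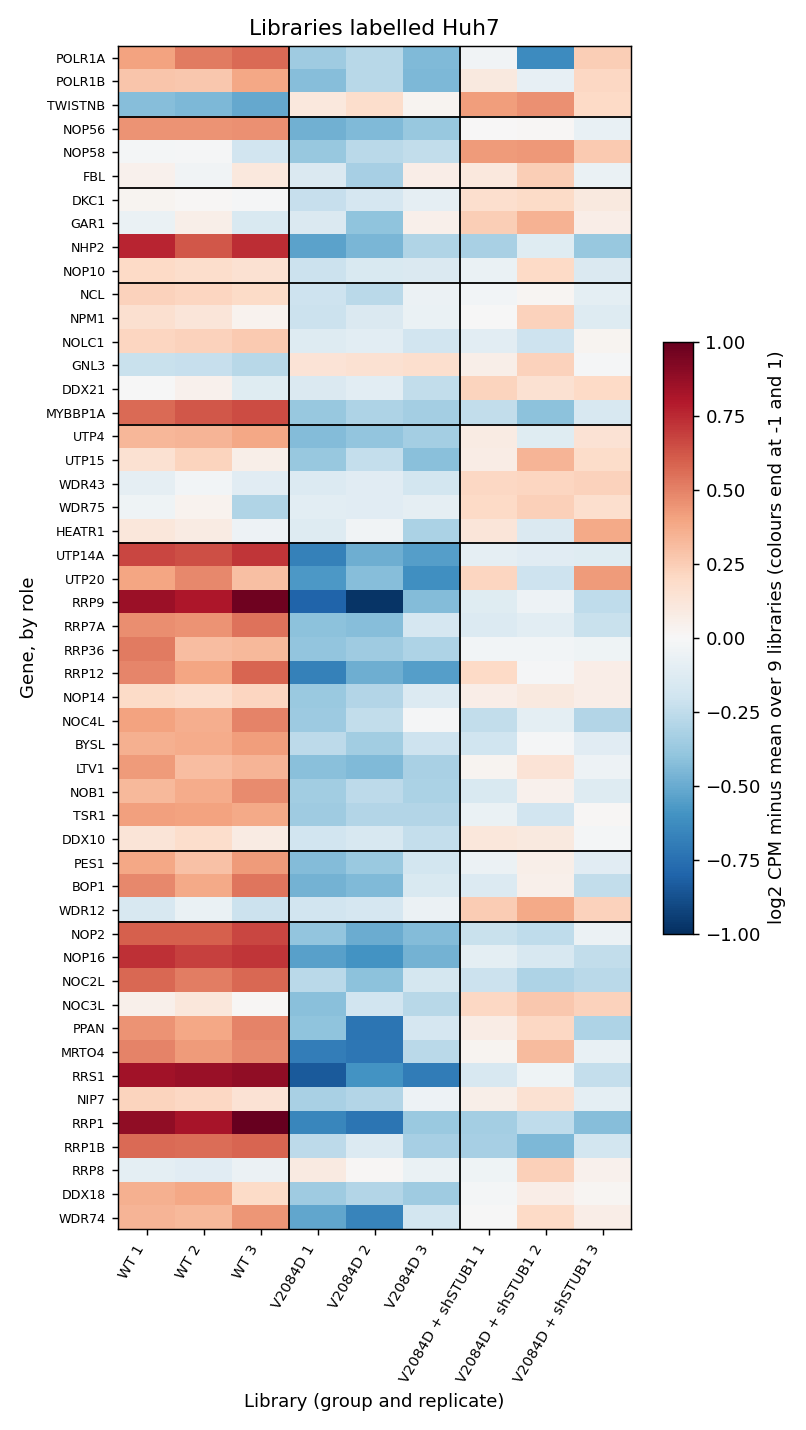
Log2 CPM of each of the 50 genes (rows, grouped by role) in each of the 9 Huh7 libraries (columns), as the difference from the gene's mean over these libraries; colours end at -1 and 1. RRP9, RRS1 and RRP1 show the widest range from WT to V2084D, and TWISTNB and GNL3 run the other way.

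**Figure D3:**
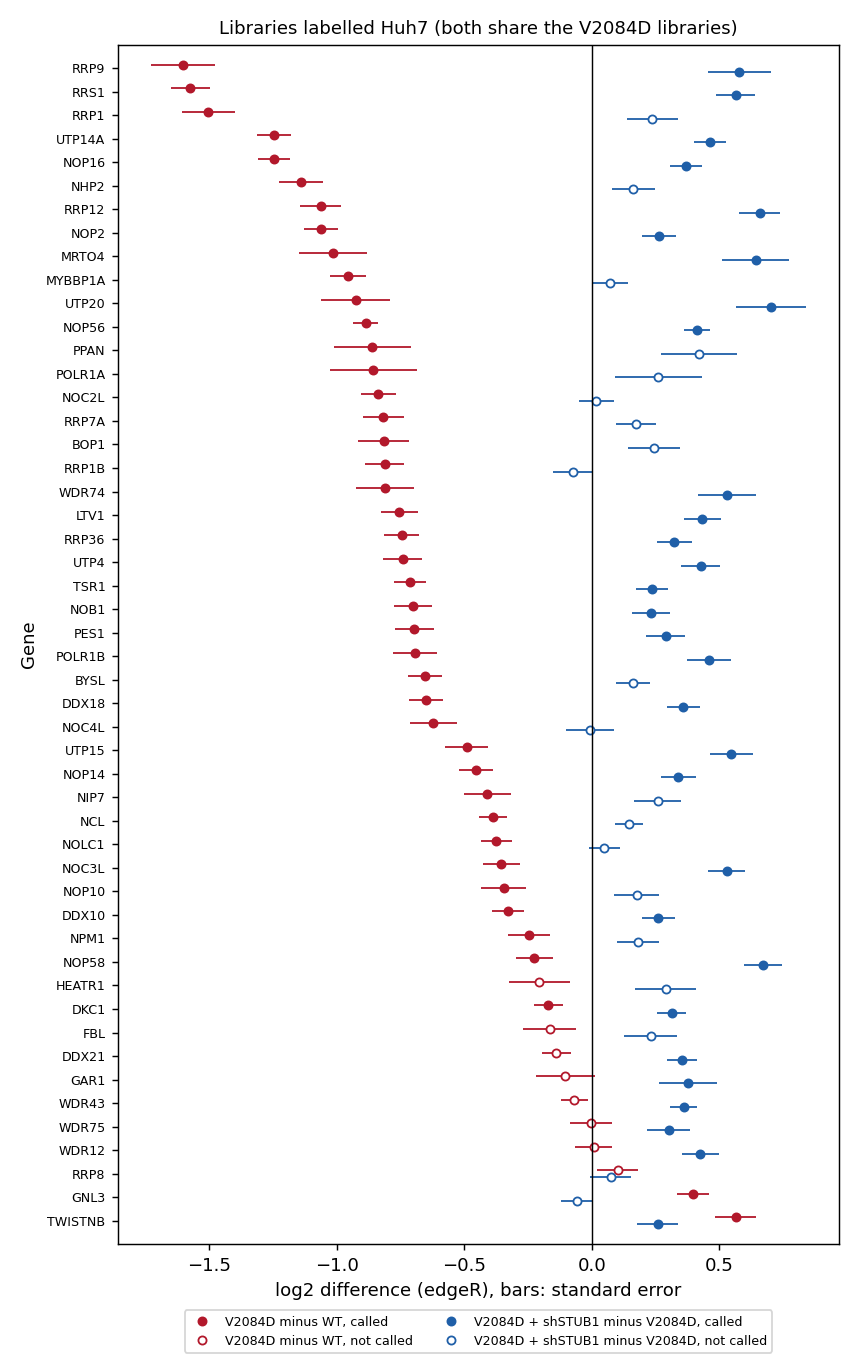
Log2 differences with standard errors (horizontal axis) of the 50 genes (vertical axis, ordered by V2084D minus WT) in V2084D minus WT and in V2084D + shSTUB1 minus V2084D, both from the Huh7 libraries; filled points passed an adjusted p of 0.05. The first runs from -1.60 to 0.56 and the second from -0.07 to 0.70, and the V2084D libraries enter both.

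Set directly against WT, the V2084D + shSTUB1 libraries had 29 members lower and 7 higher, where 21.7% of all genes tested were called lower and 23.5% higher. The median log2 difference of the members was -0.32, against 0.02 over all genes. With a log2 difference of at least 1 also asked for, 3 members were called lower, against 5.09%. The lowest genes against WT were RRP1 (-1.27), RRP9 (-1.02), RRS1 (-1.01), NHP2 (-0.98), RRP1B (-0.89) and MYBBP1A (-0.88). The 7 higher genes were TWISTNB (0.82), NOP58 (0.45), WDR12 (0.43), GNL3 (0.34), WDR75 (0.30), WDR43 (0.29) and DDX21 (0.22). With offsets for the GC content and length of transcripts, GNL3 (0.08, adjusted p = 0.139), WDR75 (0.09, adjusted p = 0.274) and WDR43 (0.10, adjusted p = 0.0686) were not called. None of the 13 other small subunit factors was called above WT, with 10 called lower and a range from -1.02 for RRP9 to -0.07 for DDX10.

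MYC, a known activator of many of these genes, was at 352, 354 and 373.5 CPM in WT, 234, 252 and 229 CPM in V2084D, and 228, 253 and 241 CPM in V2084D + shSTUB1. It fell with V2084D by 0.59 (SE 0.062, adjusted p = 2.97e-05) and did not change past the test with shSTUB1 (0.01, SE 0.062, adjusted p = 0.909). Its part in the members' levels was not tested. An E-box was present in 13 of the 33 members with a window that fell in V2084D minus WT, or 39.4%, and in 5 of the 10 other members, or 50%. The log2 differences with V2084D ran from -0.34 for NOP10 to -1.60 for RRP9 in the 13, and from -0.17 for FBL to 0.40 for GNL3 in the 5. Because the 13 and the 5 were split by this same comparison, the gap between their ranges follows from the split. TWISTNB, which rose, had a window without an E-box.

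The size of the differences went with the GC content of the transcript. Over the 50 members, the Spearman correlation of the V2084D minus WT difference with GC content was -0.68, against -0.14 over all genes tested, and these points share the same libraries. For V2084D + shSTUB1 minus V2084D it was -0.21, against -0.15 over all genes, and for V2084D + shSTUB1 minus WT -0.79, against -0.22. Members called in V2084D minus WT had a median GC content of 51.2% and the others 41.3%. The members' median of 49.5% was near the 49.1% of all genes tested. With per-library offsets for GC content and transcript length, 43 members were called lower and 2 higher in V2084D minus WT, against 22.0% and 23.8% of all genes. With shSTUB1 37 were then called higher and 1 lower, against 12.9% and 12.5%.

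**Figure D4:**
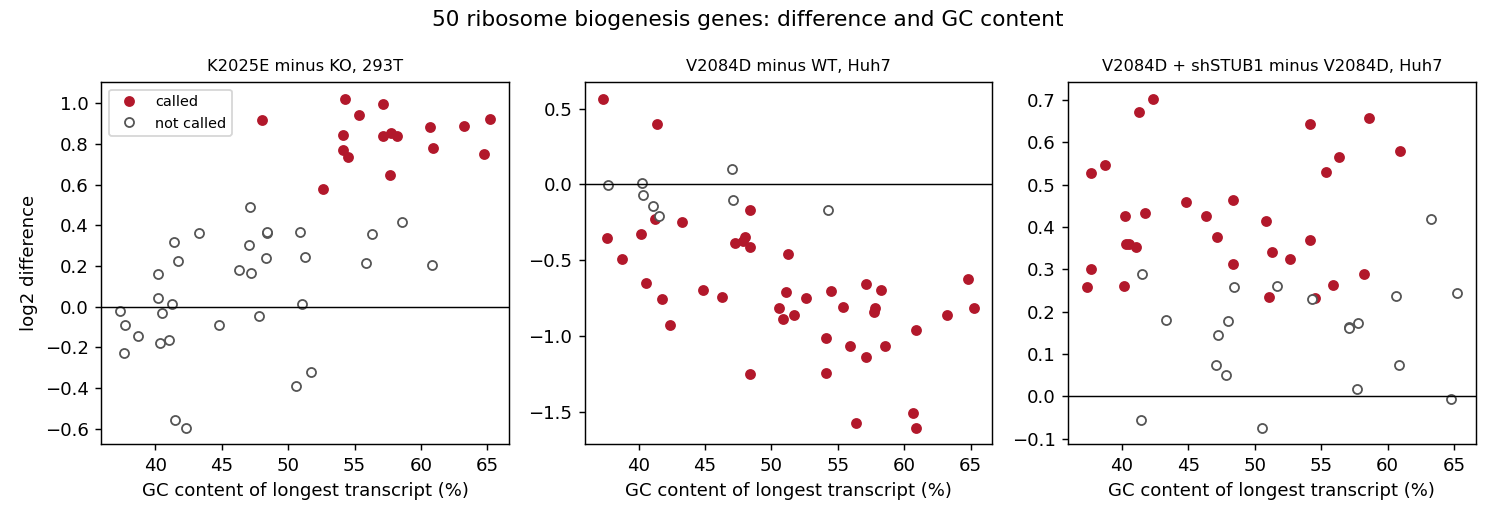
Log2 difference of each of the 50 genes (vertical axis) against the GC content of its longest transcript in percent (horizontal axis), for K2025E minus KO in the 293T libraries and for V2084D minus WT and V2084D + shSTUB1 minus V2084D in the Huh7 libraries; filled points passed an adjusted p of 0.05. The Spearman correlations over the 50 genes are 0.72, -0.68 and -0.21.

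In the 293T libraries the mean of the library medians was lowest in KO (-0.18, SD 0.21) and highest in K2025E (0.15, SD 0.076), each with n = 3, and members passed the test in 1 of 9 comparisons. In K2025E minus KO, 17 of the 50 rose and none fell, where 7.17% of all 23201 genes were called higher and 5.72% lower. The median log2 difference of the members was 0.31, against -0.02 over all genes. The 17 were FBL, NHP2 and NOP10 of the snoRNPs, PES1 and BOP1, 6 small subunit and 6 large subunit factors. None of the 3 polymerase I subunits, the 6 organisers or the 5 t-UTP proteins was called. For 25 members the K2025E libraries were all above the KO libraries and for none all below, against 16.0% and 14.6% of all genes. At an unadjusted p below 0.05 there were 23 members, against 28.3% of all genes.

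FBL was at 235, 234 and 195 CPM in KO and 296, 568 and 485 CPM in K2025E, a log2 difference of 1.02 (SE 0.19, adjusted p = 0.00674). NHP2 was at 140.1, 137.5 and 132 CPM in KO and 189, 345 and 284 CPM in K2025E (0.997, SE 0.23, adjusted p = 0.0108). NOP10 was at 43.8, 47.1 and 40.5 CPM in KO and 60.8, 92.7 and 94.9 CPM in K2025E (0.92, SE 0.17, adjusted p = 0.00674). In all 3 genes K2025E replicate 1 lay between KO and the other K2025E libraries. The small subunit factor RRP7A was at 149, 159.8 and 151 CPM in KO and 215, 350.5 and 268 CPM in K2025E (0.86, SE 0.17, adjusted p = 0.00704). BYSL, an assembly factor of the small subunit, was at 75.3, 74.9 and 68.8 CPM and 110.3, 145 and 136 CPM (0.84, SE 0.17, adjusted p = 0.00721). In the large subunit group, MRTO4 was at 69.2, 70.0 and 58.0 CPM and 93.5, 136 and 106 CPM (0.77, SE 0.15, adjusted p = 0.0071). These 3 genes show the same order, with replicate 2 of K2025E the highest. WDR74 was at 52.6, 50.3 and 56.0 CPM and 76.7, 121 and 108 CPM (0.94, SE 0.20, adjusted p = 0.00866). PES1 was at 241, 256 and 265 CPM and 331, 583 and 447 CPM (0.84, SE 0.18, adjusted p = 0.00866). BOP1 was at 163, 161 and 191 CPM and 240.1, 432 and 304 CPM (0.92, SE 0.24, adjusted p = 0.0195). By contrast POLR1A was at 142.5, 155 and 147 CPM in KO and 155, 109 and 92.4 CPM in K2025E (-0.32, adjusted p = 0.308), and POLR1B and TWISTNB also overlapped.

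The calls in K2025E minus KO changed with the libraries and with the fit. A fit of the KO and K2025E libraries alone, with all 6 kept, called 3 members, against 1.37% of all genes called higher. With a log2 difference of at least 1 also asked for, 1 member was called, against 2.03%, so its share of 2% was that of the background. On the first principal component of all genes, which holds 15.5% of the variance, K2025E replicates 2 and 3 were at -104 and -66.6 and the other 16 between -40.2 and 47.8. No member was called without replicate 2 alone or without both replicates 2 and 3, while the members' median was 0.25 and 0.27. Without K2025E replicate 3 alone 11 members were called, against 1.64% of all genes called higher, and without KO replicate 1 or without KO replicate 2, 10 each, against 2.55% and 2.19%. Without K2025E replicate 1, 17 were called higher and 4 lower, against 10.1% and 11.7% of all genes. Without KO replicate 3, 16 were called, against 5.14% of all genes called higher, and the members' median was 0.15. Over the 50 members the Spearman correlation of the difference with GC content was 0.72, against 0.34 over all genes. The members called had a median GC content of 57.1% and the others 46.3%. Each library's log2 deviation from the mean of the 293T libraries was also correlated with transcript length over all genes (Spearman). The values were 0.15, 0.15 and 0.046 in KO replicates 1 to 3, and -0.044, -0.36 and -0.35 in those of K2025E. The part of length in the calls was not tested apart from GC content. With offsets for GC content and transcript length 18 members were called, against 8.45% of all genes called higher, of which 11 were among the 17. BYSL (0.45, adjusted p = 0.0914), RRP9, RRP36, NOC4L, NOB1 and PPAN were no longer called.

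No member was called in the other 8 comparisons of 293T groups, in which 0% of all genes, or 1 gene (0.00431%) called lower in G2087R minus WT and in K2025E minus WT, passed. At an unadjusted p below 0.05, edgeR gave 15 members in WT minus KO, 11 in V2084D minus KO, 11 in G2087E minus KO and 4 in G2087R minus KO, against 11.0%, 4.83%, 5.66% and 4.31% of all genes. It gave 5 in K2025E minus WT, against 8.27%, and 0 in V2084D, G2087E or G2087R minus WT, against 2.01%, 2.05% and 4.45%. DESeq2 called 1 member each in WT minus KO and G2087E minus KO, and 0 in the other 6. The medians over the members were 0.21, 0.25, 0.23 and 0.11 for WT, V2084D, G2087E and G2087R against KO. All 4 share the KO libraries, of which replicate 3 was the lowest of the 18 for the members (median deviation -0.42, against -0.08 and -0.03 for replicates 1 and 2). Without KO replicate 3 these medians were 0.07, 0.14, 0.14 and 0.024.

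BYSL gave the smallest unadjusted p of the members in these 4 comparisons. It was at 111 to 125 CPM in WT, 90.8 to 139 CPM in V2084D, 112 to 132 CPM in G2087E and 92.5 to 117 CPM in G2087R, all above the 68.8 to 75.3 CPM of KO. Its log2 differences from KO were 0.70 (SE 0.17, adjusted p = 0.343), 0.62 (SE 0.17, adjusted p = 0.967), 0.71 (SE 0.17, adjusted p = 0.644) and 0.47 (SE 0.17, adjusted p = 0.973). Groups did not overlap for 18, 21, 21 and 10 members, all higher than KO, where 8.93%, 7.44%, 8.93% and 5.41% of all genes did so in that direction and 8.59%, 6.37%, 7.77% and 5.23% in the other. The members' differences from KO had Spearman correlations with GC content of 0.67, 0.48, 0.73 and 0.81. Over all genes these were 0.26, 0.11, 0.20 and 0.36. The deviation of each KO library from the 293T mean correlated with GC content at -0.44, -0.40 and 0.17 over all genes. The part of GC content in these counts was not tested. Against WT, no member of V2084D stood apart from it (background 3.14% higher and 3.25% lower), and 2 members were higher in G2087E (3.66% higher and 3.66% lower). In G2087R 4 members were lower than in WT (4.70% higher and 4.84% lower), and in K2025E 2 were higher (3.34% higher and 3.77% lower). These shares of 0 to 8% of the members are near their backgrounds.

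The change from WT to V2084D differed between the 2 sets of libraries. In a joint fit, 21 members had a lower V2084D minus WT difference in Huh7 than in 293T and none a higher one, where 4.21% of all 24546 genes were called lower and 5.50% higher. With a log2 difference of at least 1 also asked for, 7 were called lower, against 2.05%. The median of this difference of differences was -0.69 over the members and 0.05 over all genes. RRS1 differed most clearly: its V2084D minus WT difference was -1.57 in Huh7 and -0.01 in 293T, where it was at 91.1, 79.2 and 54.6 CPM in WT and 78.9, 61.8 and 83.2 CPM in V2084D (difference of -1.55, SE 0.21, adjusted p = 5.14e-05). UTP14A was at 95.2, 94.9 and 129 CPM in 293T WT and 111, 105 and 104 CPM in V2084D, with a difference between the sets of -1.23 (SE 0.22, adjusted p = 0.000807). The 21 genes were 2 of 3 polymerase I subunits, NOP56, NOLC1, MYBBP1A, UTP4, 8 of 13 small subunit and 7 of 13 large subunit factors. None of the box H/ACA or PeBoW genes passed, NHP2 coming nearest (-0.81, adjusted p = 0.0655). In the WT libraries ARID1A ranged from 5690 to 62920 CPM in the 293T set and from 342 to 399.9 CPM in Huh7. With V2084D its range, given above, lay wholly below that of WT in Huh7. In 293T the V2084D range overlapped with that of WT and reached higher. The part of the ARID1A level in the difference between the sets was not tested.

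**Figure D5:**
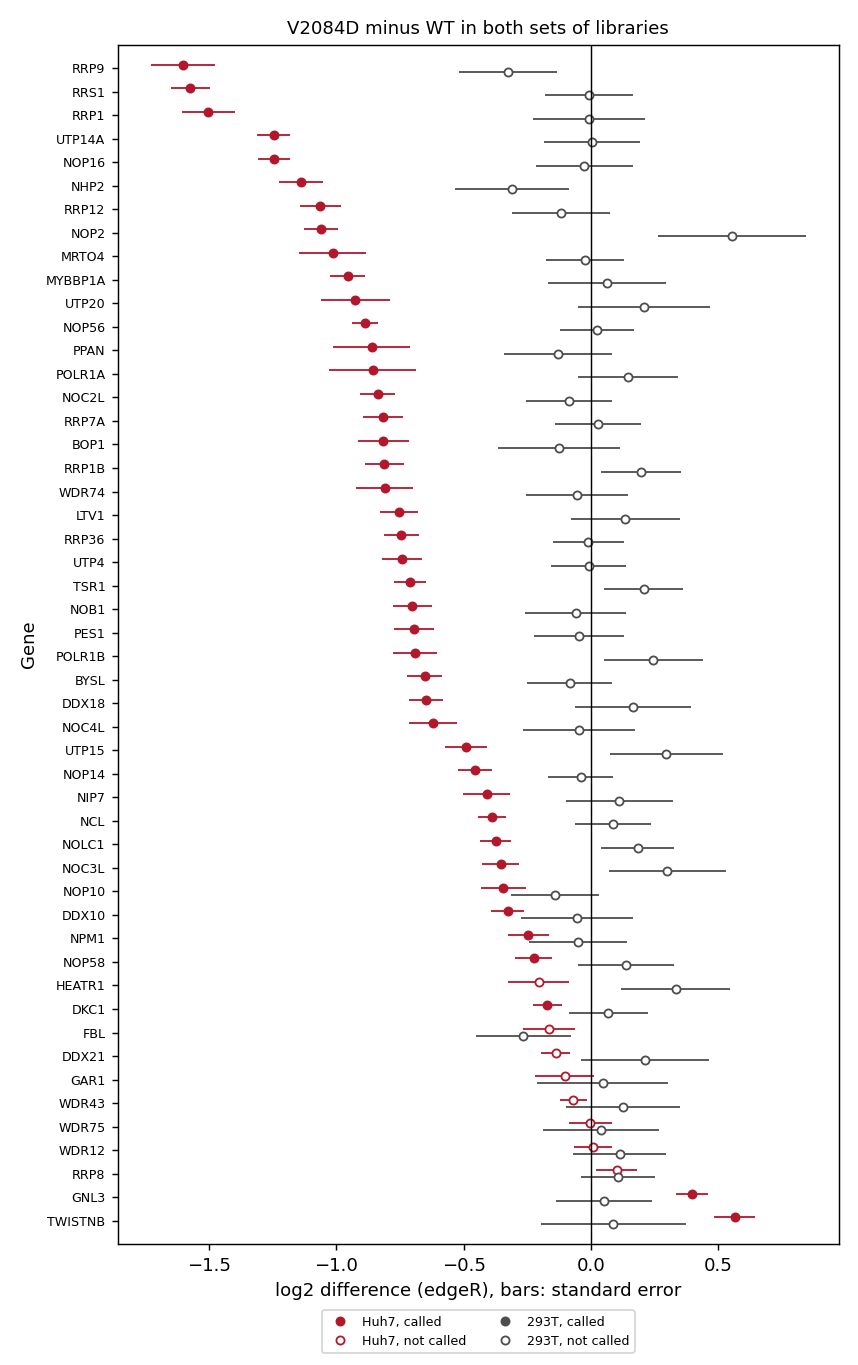
Log2 difference of V2084D minus WT with its standard error (horizontal axis) for each of the 50 genes (vertical axis) in the Huh7 and the 293T libraries; filled points passed an adjusted p of 0.05. The 293T values lie between -0.33 and 0.55 with none called, against 0% of all genes. The Huh7 values lie between -1.60 and 0.56 with 42 called, against 42.0% of all genes. The highest 293T value, of NOP2, becomes -0.099 when the counts of an overlapping gene model are added.

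Overlapping gene models make some counts uncertain: 6 members overlap a protein-coding model on the same strand and 14 overlap one on the opposite strand, and whether the counting used strand is not given in the sources used here. NOP2 (chr12:6556863-6568691, minus strand) lies almost wholly inside AC006064.6, and that model took 0 to 79.6% of the counts of the pair across the 293T libraries, with the highest share in WT replicate 2. NOP2 was at 67.8 CPM in that library and at 192 and 187 CPM in the other 2 of WT. With the counts of the pair added together, the difference between the sets for NOP2 was -0.85 (adjusted p = 0.0136) rather than -1.59, and the fall in Huh7 was -0.98 rather than -1.06. Its rise with shSTUB1 then no longer passed (0.17, adjusted p = 0.151). PPAN (chr19:10106289-10111634, plus strand) is also covered by the read-through model PPAN-P2RY11, and its rise in K2025E minus KO was 0.83 with the pair added, beside 0.89.

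Further genes of the pathway that are not among the 50 were called mostly, but not all, in the same directions. Of 56 other ribosome biogenesis factors, 34 fell and 6 rose in V2084D minus WT, against 20.0% and 22.0% of all genes. Their log2 differences ran from -1.33 to 1.47 (median -0.31). With shSTUB1 36 rose and 1 fell (median 0.30), against 10.8% and 10.8%. The ATPase NVL rose with shSTUB1 by 0.60 (adjusted p = 0.000755), the kinase RIOK2 by 0.49 (adjusted p = 0.000859) and NOL9, a kinase of precursor ends, by 0.49 (adjusted p = 0.00123). In K2025E minus KO 12 rose and none fell (median 0.26), against 7.17% and 5.72% of all genes, with NOP53 at 1.14, WDR46 at 0.79 and EMG1 at 0.67. Of 12 other genes of the RNA polymerase I machinery, 6 fell and 2 rose with V2084D, and 6 rose and 1 fell with shSTUB1. The shares of all genes are those given above for each comparison. POLR1G, a subunit of the polymerase, was at 30.2, 31.5 and 24.6 CPM in WT, 6.97, 5.47 and 8.47 CPM in V2084D, and 12.1, 11.8 and 14.1 CPM in V2084D + shSTUB1. It fell by 2.05 (SE 0.16, adjusted p = 5.77e-06), further than any of the 50, and rose with shSTUB1 by 0.86 (SE 0.16, adjusted p = 0.00408). UBTF, which binds the ribosomal DNA, fell by 0.74 and rose by 0.36, and POLR1E fell by 0.87 and rose by 0.34. In K2025E minus KO POLR1C (0.87) and POLR1H (0.93) rose, and TTF1 did not pass (0.38, adjusted p = 0.167).

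Divided by exon length, NPM1 was the highest in every group, at 440.4 CPM per kb in 293T KO and 502 CPM per kb in Huh7 WT, followed by NCL at 225 and 274 CPM per kb. RRP8 was at 3.91 and 4.54 CPM per kb, the lowest of the 50 in both of these groups. NHP2 ranked 3 of 50 in Huh7 WT, at 214 CPM per kb, and 8 of 50 in Huh7 V2084D, at 97.3 CPM per kb, while RRP12 became the lowest there, at 4.08 CPM per kb.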

How the data were processed

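Gene expression was measured by RNA sequencing of total RNA in 27 samples (NEBNext Ultra II libraries, per the labels' protocols). The authors deposited 1 table of raw counts per gene for each labelled line, made on GRCh38 per the submitters' processing notes. The aligner, the counting tool and its strand setting are not given in the sources used here. All count columns matched a sample by its label. Symbols and positions come from GENCODE 29 and promoters from RefSeq.

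From the counts, edgeR 4.0.16 in R 4.3.3 was run with TMM scaling and filterByExpr (minimum count 10, minimum total count 15), with all groups of a label (293T or Huh7) in 1 fit and a joint fit of both sets for the difference between them. This left 23201, 22510 and 24546 genes (293T, Huh7, joint), with common biological coefficients of variation of 30.9%, 24.8% and 30.3%. The quasi-likelihood F test was adjusted by Benjamini-Hochberg across every gene in the fit, and a gene counted as called under an adjusted p of 0.05. A standard error was obtained as the size of the log2 difference over the root of F. Levels per library are CPM with TMM scaling; for log2 CPM the prior count was 2. In the libraries compared, replicate pairs differed by 11.7 to 345 times the variance that counting gives (chi-square per degree of freedom), so none was a copy of another. FBL, BOP1, UTP4 and NOC4L have a further row with the same symbol and no counts, which was left out.

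Deviations from the group mean correlated above 0.1 in all 3 same-numbered pairs for G2087R minus WT alone (0.13, 0.18 and 0.32). This is a hint of pairs from the data and not from the labels. The main fits used no pairing, and a block for the replicate number was run as an alternative.

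The members, their role groups, the 2 further gene lists and the tests were chosen with earlier results of these data known. By the rule for named genes, all members could be named, with values per library for role groups of up to 4 genes and, in larger groups, for up to 2 genes with the smallest adjusted p in K2025E minus KO or in V2084D + shSTUB1 minus V2084D. Values per library of UTP14A, RRS1 and BYSL in further groups, and of NOP2, were added after they were seen. Of the further lists, up to 3 genes with the smallest adjusted p in those comparisons could be named.

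Alternatives were scaling by RLE, DESeq2 1.42.0, leaving out the filter or asking for 1 CPM in at least 3 libraries, a block for the replicate number, the compared groups alone, a log2 difference of at least 1, and libraries left out. Offsets for the GC content and length of transcripts (annotated for 97.5% to 97.9% of genes tested) and the adding of counts of overlapping genes were chosen after seeing the data. The scripts were tested on simulated data.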

Additional observations from a re-analysis of the deposited data

Results flagged for a closer look

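For 21 members the V2084D minus WT difference in the Huh7 libraries was lower than in the 293T libraries, by edgeR's test of the difference of differences in the joint fit (adjusted p below 0.05). The log2 values were, for the polymerase I subunits, -0.98 for POLR1A and -0.92 for POLR1B, and for the snoRNP and nucleolar proteins -0.89 for NOP56, -0.53 for NOLC1 and -0.997 for MYBBP1A. Among the small subunit factors they were -0.71 for UTP4, -1.23 for UTP14A, -1.11 for UTP20, -1.26 for RRP9, -0.82 for RRP7A, -0.71 for RRP36, -0.92 for RRP12, -0.87 for LTV1 and -0.90 for TSR1. Among the large subunit factors they were -1.59 for NOP2, -1.20 for NOP16, -0.73 for NOC2L, -0.97 for MRTO4, -1.55 for RRS1, -1.47 for RRP1 and -0.98 for RRP1B. With the counts of the overlapping model AC006064.6 added, the value of NOP2 was -0.85.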

How the results depend on the processing

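Of the 42 members called in V2084D minus WT in Huh7, 39 stayed called under all 15 alternatives that kept the threshold at an adjusted p of 0.05 alone. No called member changed direction in any comparison under such alternatives. The same held for 22 of 30 calls in V2084D + shSTUB1 minus V2084D and 27 of 36 in V2084D + shSTUB1 minus WT, also over 15. It held for 15 of 21 in the difference between the sets labelled Huh7 and 293T, over 22, and for none of 17 in K2025E minus KO, over 17. In the difference between the sets the calls that ended under an alternative were POLR1A, NOLC1, MYBBP1A, UTP20, LTV1 and NOC2L. Against WT, those of V2084D + shSTUB1 were POLR1A, POLR1B, GNL3, DDX21, WDR43, WDR75, RRP12, PPAN and MRTO4.

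With a log2 difference of at least 1 asked for, 1 member was called in K2025E minus KO, 9 in V2084D minus WT in Huh7, 0 in V2084D + shSTUB1 minus V2084D, 3 in V2084D + shSTUB1 minus WT and 7 in the difference between the sets. The shares of all genes called by that rule, in either direction, were 4.24%, 11.2%, 2.92%, 13.0% and 6.03%. DESeq2 called 1 in WT minus KO and 1 in G2087E minus KO, against 0.302% and 0.159% of all genes. A fit of the compared groups alone called 3 in K2025E minus KO, against 2.10%, and a fit without K2025E replicates 2 and 3 called 0, against 0.00387%. With GC and length offsets 33 were called in the difference between the sets, against 17.8%. The cause of these changes was not tested, beyond the fewer samples or the stricter rule of some.

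With single libraries left out, the count of called members ran from 0 to 21 in K2025E minus KO, 0 to 1 in K2025E minus WT, 39 to 42 in V2084D minus WT in Huh7, 23 to 34 in V2084D + shSTUB1 minus V2084D, 32 to 37 in V2084D + shSTUB1 minus WT and 15 to 25 in the difference between the sets. Of all genes, 0.00419% to 21.8% were called in these fits of K2025E minus KO and 0% to 4.34% in those of K2025E minus WT. The shares were 34.3% to 37.0%, 12.3% to 19.2% and 37.3% to 41.5% in the Huh7 comparisons, in the order above. They were 6.55% to 8.74% in the difference between the sets. The count of called members was 0 in all such fits of the other 293T comparisons.

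The block changed no call of a member in G2087R minus WT, where the data hinted at pairs by replicate number: 0 were called with and without it. In the other comparisons the samples share only a number. With the replicate number as a block, 17 members were called in K2025E minus KO, 41 in V2084D minus WT in Huh7, 28 in V2084D + shSTUB1 minus V2084D, 33 in V2084D + shSTUB1 minus WT, 20 in the difference between the sets and 0 elsewhere, against 15.5%, 38.9%, 17.7%, 41.8% and 10.6% of all genes in these 5. The replicate block with GC and length offsets gave 2 in WT minus KO, 26 in K2025E minus KO and 35 in the difference between the sets, against 1.95%, 20.1% and 22.4% of all genes.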
